A study of Mus musculus with 5 samples.

Results

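Dense-core vesicles are the compartments in which peptide-secreting cells store hormones and neuropeptides for release on demand. Granins are acidic proteins that aggregate in the trans-Golgi network and help to load these vesicles, prohormone convertases cut the precursors at pairs of basic residues, and carboxypeptidase E trims the basic residues left behind. The machinery is best known from neurons and endocrine cells, and astrocytes also make parts of it, carboxypeptidase E and secretogranin III among them. The 10 genes described here were taken by symbol from a deposited table of raw counts for 35976 genes. They are the granins Chga, Chgb, Scg2 and Scg3, the granin-family chaperone Scg5, the endocrine secretory protein Resp18, the convertases Pcsk1 and Pcsk2, the convertase inhibitor Pcsk1n and the carboxypeptidase Cpe. The set was drawn up because Scg2 and Resp18 were higher in the columns marked DTX, so every comparison of these 10 genes between the groups is a description and carries no test. All 10 passed the filter on low counts, which 15532 genes passed.

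The libraries came from astrocytes of the amygdala, named as basolateral in the design text, of mice of the genotype Ccr2::CreERT2/+;DTR/+. CreERT2 is a Cre that tamoxifen switches on, here under control of Ccr2, a receptor of monocytes, and DTR is the receptor that makes cells sensitive to diphtheria toxin. The series names monocyte depletion as its aim, and cells that never expressed Ccr2 are outside the reach of this driver. Mice of 1 group received DTx (diphtheria toxin, 3 libraries, called 5A, 6A and 7A after their columns), and the controls received saline (2 libraries, replicates 1 and 2). Both groups had tamoxifen, 18 days of tube restraint, fear conditioning and extinction, and the cells were captured with beads against the astrocyte antigen ACSA-2. The labels give no age.

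Total counts were 15961220 to 18708138 in the DTx libraries and 20577672 and 23720299 in the saline libraries. Levels are given as CPM, the count relative to library size after TMM scaling. Of 14 astrocyte markers, 14 passed the low-count filter, with a summed level of 29044 to 32192.5 CPM in DTx and 29093 and 29135 CPM in saline libraries. The sum does not speak for each marker, since 6 were higher and 8 lower on average in DTx. Gfap was at 1079, 1132 and 1609 CPM in the DTx libraries 5A, 6A and 7A, against 290 and 741 CPM in saline replicates 1 and 2. Aqp4 and Atp1b2 were lower in each DTx library than in either saline library, and the other markers overlapped. The libraries did not pair by group over the whole table. The chi-square per degree of freedom between counts, which is lower for more similar libraries, was 14.25 between DTx 5A and 6A and 17.68 between DTx 7A and saline replicate 2. It was 60.74 and 58.36 between 7A and the DTx libraries 5A and 6A, and 59.97 between the saline replicates. RNA of other cells was also present. The 10 oligodendrocyte markers summed to 42977 to 90697 CPM in DTx and to 60227 and 92808 CPM in saline libraries, and the highest sums were those of DTx 7A and saline replicate 2. Ccr2 itself had 54, 4 and 4 counts in the DTx libraries 5A, 6A and 7A and 0 counts in both saline libraries. That direction is opposite to the depletion the series title names, but most of these counts were in library 5A. The monocyte marker Ly6c2 had 0 counts in each DTx library and 0 and 2 counts in saline replicates 1 and 2. Plac8, on the same marker list, had 1, 5 and 0 counts in DTx and 2 and 0 in saline libraries. Counts this low do not tell whether monocytes were depleted. Sex-linked transcripts separated the groups. Xist had 3 counts in DTx and 6615 in saline libraries, and 4 Y-linked genes had 10308 counts in DTx and 6 in saline libraries. Treatment and sex-chromosome state therefore cannot be told apart in any value below, and Pcsk1n is itself on chromosome X.

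The upstream sequences of 5 of the 10 genes are shown first, because Scg2, Chgb and Pcsk1 share an element there that is missing from Resp18, the gene whose values were most like those of Scg2. Each is the 120 bases before the start used by the RefSeq promoter table (GRCm38.p6), written 5′ to 3′ on the gene's own strand. For Pcsk1 that start lies 437 bases inside the outermost RefSeq bounds of the gene given further on, and for Scg3 1903 bases inside, while for the other 7 genes with a window it is the 5′ end of those bounds. Capitals mark the cAMP response element TGACGTCA or its shorter form TGACG on either strand.
Scg2 (chr1:79440027-79440146, minus strand): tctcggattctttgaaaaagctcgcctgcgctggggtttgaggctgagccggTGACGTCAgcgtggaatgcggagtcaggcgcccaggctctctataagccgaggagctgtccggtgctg
Chgb (chr2:132781522-132781641, plus strand): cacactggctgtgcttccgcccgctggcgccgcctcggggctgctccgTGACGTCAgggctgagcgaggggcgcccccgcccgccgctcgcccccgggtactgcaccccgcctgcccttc
Pcsk1 (chr13:75089737-75089856, plus strand): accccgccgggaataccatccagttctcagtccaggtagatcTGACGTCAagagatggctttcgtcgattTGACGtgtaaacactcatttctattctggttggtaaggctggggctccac
Chga (chr12:102554821-102554940, plus strand): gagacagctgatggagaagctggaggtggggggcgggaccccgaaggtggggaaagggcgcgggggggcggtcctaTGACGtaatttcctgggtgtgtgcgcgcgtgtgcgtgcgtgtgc
Resp18 (chr1:75278416-75278535, minus strand): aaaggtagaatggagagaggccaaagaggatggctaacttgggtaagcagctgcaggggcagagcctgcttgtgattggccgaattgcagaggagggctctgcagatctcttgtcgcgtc

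The cAMP response element is the sequence bound by CREB-family transcription factors, and its full form is a palindrome that holds the shorter form on each strand. Promoter windows of 300 bases, reaching 250 bases before the start and 50 after it, were held for 9 of the 10 genes. The full element was present in 3 of them, against 1.79% of all 32851 windows in the table. Relative to the start used by the table, it began 68 bases before that of Scg2, 72 before that of Chgb and 78 before that of Pcsk1. The shorter form on either strand was present in 7 of the 9 windows, against 20.8% of all windows. The shorter form alone began 44 bases before the start in Chga, 30 in Scg3 and 34 in Pcsk2, while Scg5 had it 175 bases before the start and also 20 and 41 bases after it. The windows of Resp18 and Pcsk1n held neither form. These are matches of letters in a window, not measured binding sites.

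Per kilobase of transcript, the 10 genes spanned more than 4 orders of magnitude, and Cpe stood far above the others. Cpe (GRCm38.p6 chromosome 8, 64592542 to 64693109, 9 exons in its longest coding transcript) was at 6324 ± 155 CPM per kilobase in DTx libraries (SD, n = 3) and 6122 ± 181 CPM per kilobase in saline libraries (SD, n = 2). It supplied 92.0% to 93.9% of the counts of the 10 genes in DTx libraries and 93.7% and 94.7% in saline libraries. Scg3 followed at 231 ± 39.9 CPM per kilobase in DTx and 202 ± 28.7 in saline libraries, and Pcsk1n at 165 ± 34.5 in DTx and 105 ± 27.6 in saline libraries. The values of Scg3 and Pcsk1n overlapped over the 5 libraries, so their order is not settled. Scg5 came next at 55.6 ± 8.34 CPM per kilobase in DTx and 45.7 ± 4.29 in saline libraries. Resp18, Scg2, Chga, Chgb and Pcsk2 then followed in this order, and each overlapped the next in its range over the libraries. Pcsk1 was lowest, at 0.298 ± 0.191 CPM per kilobase in DTx and 0.166 ± 0.0667 in saline libraries, and it did not overlap Pcsk2. The plot of level per transcript length shows this order.

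**Figure D1:**
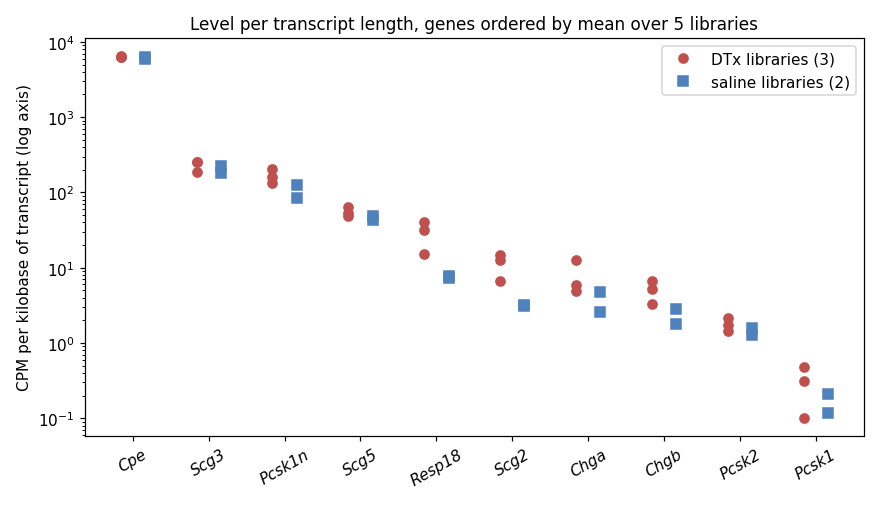
CPM per kilobase of the longest coding transcript (log axis) for the 10 genes, ordered by their mean over 5 libraries, with DTx libraries as circles and saline libraries as squares. Cpe lies between 5994 and 6499 in every library, while the DTx and saline points of Resp18 and Scg2 are apart.

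Scg2 and Resp18 were the genes with the widest separation between groups. Scg2 encodes secretogranin II, the precursor of the peptide secretoneurin (chromosome 1, 79434366 to 79440026, 2 exons). It stood at 36.9, 31.6 and 16.6 CPM in the DTx libraries 5A, 6A and 7A, against 7.85 and 7.93 CPM in saline replicates 1 and 2. The groups did not overlap, the saline replicates were nearly equal, and library 7A was the lowest of the DTx libraries. Relative to the saline mean, Scg2 was 4.67-fold, 4.003-fold and 2.11-fold higher in libraries 5A, 6A and 7A. The fitted log2 fold change was 1.85 ± 0.353 (SE), from 292 to 698 counts per DTx library and 170 and 177 counts in saline libraries.

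Resp18 encodes an endocrine secretory-pathway protein related to the luminal part of the vesicle protein encoded by Ptprn (chromosome 1, 75272197 to 75278415, 6 exons). It was at 30.02, 23.5 and 11.4 CPM in the DTx libraries 5A, 6A and 7A, against 5.77 and 5.51 CPM in saline replicates 1 and 2. As with Scg2, every DTx library lay above both saline libraries and library 7A was closest to them. The fitted log2 fold change was 1.94 ± 0.420 (SE). GENCODE places a gene on the opposite strand over part of the Resp18 exons, and whether counting used the strand is not given in the sources used here.

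The values of these genes kept close to each other from library to library. Scg2 was 1.23, 1.34 and 1.46 times Resp18 in CPM in the DTx libraries 5A, 6A and 7A, and 1.36 and 1.44 times in saline replicates 1 and 2. They are 4.16 Mb apart on chromosome 1. Profiles were compared as log2 CPM centred on each gene's own mean, by the root-mean-square distance over 5 libraries, among genes averaging at least 5 CPM. Of 10749 other genes, Resp18 was the nearest to Scg2, at a distance of 0.0862. Both were chosen for being higher in the DTx libraries, so some likeness was built in. The nearest genes outside the set were Caly, a neuronal vesicle protein, at 0.186 from Scg2, Gpx3, an extracellular glutathione peroxidase, at 0.186, and Sulf1, an extracellular heparan sulfatase, at 0.226. Irgm2, an interferon-induced GTPase, was at 0.229 and Nrsn2, a neuronal membrane protein, at 0.234. For Resp18 the nearest were again Caly, Gpx3, Irgm2 and Sulf1, at 0.200, 0.241, 0.256 and 0.269, followed by the neuronal globin Ngb at 0.282. Caly stood at 14.8, 12.5 and 6.27 CPM in the DTx libraries 5A, 6A and 7A, against 4.25 and 3.32 CPM in saline libraries. Within the set, Chgb was at 0.385 from Scg2 and Chga at 0.544, while Cpe was at 0.916.

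**Figure D2:**
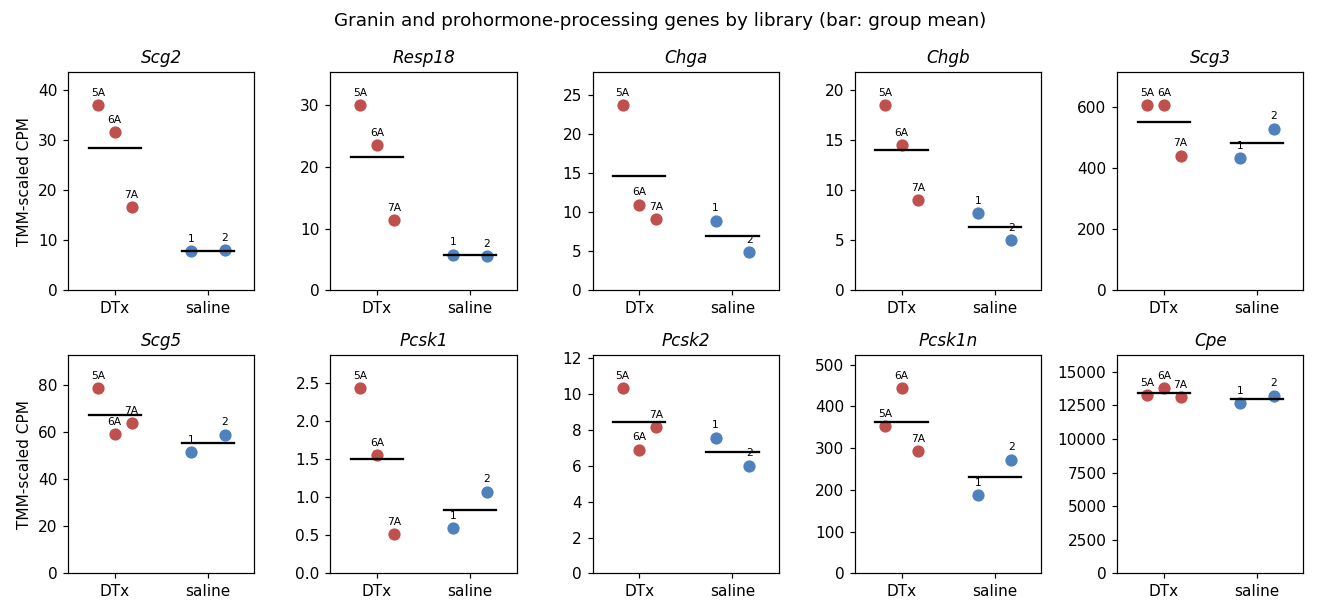
TMM-scaled CPM of each gene in every library on linear axes from 0, with DTx libraries (5A, 6A, 7A) left of saline libraries (1, 2) and a bar at each group mean. Scg2 and Resp18 show saline points together near 7.89 and 5.64 CPM on average and DTx points above them, with 5A highest, while the Cpe points nearly coincide.

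The chromogranins, the main matrix proteins of dense-core vesicles, were also higher in each DTx library than in either saline library. Chga (chromosome 12, 102554941 to 102565027, 8 exons) encodes a precursor of several peptides, catestatin among them. It was at 23.7, 10.9 and 9.11 CPM in the DTx libraries 5A, 6A and 7A, against 8.91 and 4.84 CPM in saline replicates 1 and 2. Library 7A lay just above saline replicate 1, so the separation was narrow and library 5A carried much of the difference. The log2 fold change of Chga was 1.09 ± 0.495 (SE), and it was 0.541 without library 5A and 0.711 without saline replicate 2. Chgb (chromosome 2, 132781642 to 132795079, 5 exons) was at 18.5, 14.5 and 9.0003 CPM in the DTx libraries 5A, 6A and 7A, against 7.71 and 4.98 CPM in saline replicates 1 and 2. Its groups did not overlap, and its log2 fold change was 1.14 ± 0.361 (SE).

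The abundant granins differed less. Scg3, which links chromogranin A to cholesterol-rich vesicle membrane (chromosome 9, 75643366 to 75685959, 12 exons), was at 606, 605 and 441 CPM in the DTx libraries 5A, 6A and 7A, against 432 and 529 CPM in saline replicates 1 and 2. Its groups overlapped, since library 7A lay below saline replicate 2, and the log2 fold change was 0.20 ± 0.212 (SE), with 0.0545 without saline replicate 1 and 0.350 without saline replicate 2. It was 0.120 without library 5A, 0.120 without 6A and 0.334 without 7A. Scg5, also called 7B2, is the chaperone that convertase 2 needs to become active (chromosome 2, 113776313 to 113829091, 6 exons). It was at 78.5, 59.1 and 63.9 CPM in the DTx libraries 5A, 6A and 7A, against 51.6 and 58.9 CPM in saline replicates 1 and 2. The groups touched without overlapping, with 59.15 CPM in library 6A and 58.91 CPM in saline replicate 2, and the log2 fold change was 0.28 ± 0.169 (SE), with 0.153 without library 5A and 0.187 without saline replicate 1.

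The convertases were low in all libraries. Pcsk1, which encodes convertase 1/3 (chromosome 13, 75089420 to 75134861, 14 exons), was at 2.43, 1.55 and 0.513 CPM in the DTx libraries 5A, 6A and 7A, against 0.600 and 1.08 CPM in saline replicates 1 and 2. Library 7A was the lowest of all, and the values rest on 46, 25 and 9 counts in DTx and 13 and 24 counts in saline libraries. Pcsk2, which encodes convertase 2 (chromosome 2, 143546133 to 143816284, 12 exons), was at 10.3, 6.90 and 8.15 CPM in the DTx libraries 5A, 6A and 7A, against 7.57 and 6.01 CPM in saline replicates 1 and 2. Both convertases had overlapping groups, with log2 fold changes of 0.84 ± 0.693 for Pcsk1 and 0.32 ± 0.259 for Pcsk2 (SE). Single libraries moved both: Pcsk1 was at 0.291 without library 5A, and at 0.475 or 1.31 when saline replicate 1 or 2 was left out. Pcsk2 was at 0.146 without library 5A, and at 0.490 or 0.159 when saline replicate 1 or 2 was left out. Antisense genes overlap exons of Pcsk2, and the more abundant of them, Pcsk2os1, had 14 to 32 counts in DTx and 35 and 21 counts in saline libraries.

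The convertase inhibitor stood apart between groups more than the carboxypeptidase. Pcsk1n encodes proSAAS, an inhibitor of convertase 1/3 (chromosome X, 7919822 to 7924410, 3 exons). It was at 353, 443 and 293 CPM in the DTx libraries 5A, 6A and 7A, against 187 and 273 CPM in saline replicates 1 and 2. Its groups did not overlap, although library 7A was close to saline replicate 2, and here 6A rather than 5A was highest. The log2 fold change of Pcsk1n was 0.66 ± 0.252 (SE), and 0.410 without saline replicate 1. Cpe was at 13267, 13759 and 13138 CPM in the DTx libraries 5A, 6A and 7A, against 12689 and 13231 CPM in saline replicates 1 and 2. Its groups overlapped at a log2 fold change of 0.05 ± 0.194 (SE), between 0.0140 and 0.0775 when 1 library was left out, so the most abundant gene of the set was nearly level over the libraries.

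All 10 genes had a fitted fold change above 0, with a median log2 value of 0.75 against 0.00171 for all genes tested. The groups did not overlap, with DTx higher, for 6 of the 10 genes, where 12.1% of all genes tested had that pattern. With edgeR's quasi-likelihood test and adjustment over all genes, 0 of the 10 passed an adjusted p of 0.05, where 0.0322% of all genes passed (0.0258% higher and 0.00644% lower in DTx). At an unadjusted p under 0.05 there were 4, all higher in DTx, where 4.29% of all genes were higher and 2% lower. DESeq2 called 2 of the 10, Scg2 and Resp18, where it called 0.624% of genes as higher and 0.105% as lower in DTx, and limma-voom called 0. The genes were chosen from this contrast, so nothing is read from these counts. The median log2 fold change was 0.416 without library 5A and 0.483 without saline replicate 1. Without library 7A, edgeR called Scg2 and Resp18, with log2 fold changes of 2.12 and 2.25. Of the 10 genes, 8 were highest in library 5A, and 6 followed the order 5A, 6A, 7A within DTx.

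The genes differed in how they stood to neuronal RNA in the same libraries. All 20 neuron markers on the list passed the low-count filter and none was at 0 in any library, so neuronal RNA was present in every one. Their summed level was 1253, 1543 and 1081 CPM in the DTx libraries 5A, 6A and 7A, against 972 and 820 CPM in saline replicates 1 and 2. These sums did not overlap (two-sided exact permutation p = 0.2, the smallest p that this test allows with 3 against 2 libraries). Of the 20 markers 18 had a fold change above 0, with a median log2 value of 0.46, and 0 passed edgeR's test (5 at an unadjusted p under 0.05, all higher in DTx), and DESeq2 called 0. Stmn2, a tubulin-binding protein of growing neurites, was at 39.9, 38.8 and 24.6 CPM in the DTx libraries 5A, 6A and 7A, against 18.3 and 18.5 CPM in saline replicates 1 and 2. Celf4, a neuronal RNA-binding protein, was at 238, 326 and 175 CPM in the same DTx libraries, against 147 and 105 CPM in saline replicates 1 and 2. Map2 was at 343, 423 and 286 CPM in DTx, against 232 and 269 CPM in saline libraries. Map2 and Celf4 had the highest mean levels of the 20 markers in both groups, so the sum leans on them. The groups did not overlap, with DTx higher, for 7 of the 20 markers, where 12.1% of all genes tested had that pattern. For 0 of the 20 was every DTx library lower. Fewer neurons in a preparation and less RNA per neuron cannot be told apart in such bulk libraries.

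Scg2 and Resp18 were chosen for being higher in DTx, so some separation was built in here too. Set against the neuron-marker sum of the same library, their groups did not overlap. Scg2 was 2.94%, 2.05% and 1.54% of that sum in the DTx libraries 5A, 6A and 7A, against 0.807% and 0.967% in saline replicates 1 and 2. Resp18 was 2.40%, 1.52% and 1.05% in the same DTx libraries, against 0.593% and 0.672% in saline replicates 1 and 2. The ratio of group means was 2.45 for Scg2 and 2.62 for Resp18, below their ratios of 3.59 and 3.83 in CPM. Chgb also stayed apart, at 1.48%, 0.939% and 0.833% in DTx and 0.793% and 0.607% in saline libraries. Chga overlapped on this scale, at 1.89%, 0.709% and 0.843% in DTx and 0.916% and 0.590% in saline libraries, and so did Pcsk1n, Scg3, Scg5, Pcsk1 and Pcsk2. Cpe was lower in every DTx library relative to neuron markers, at 892% to 1216% of their sum, against 1305% and 1613% in saline libraries. With 10 inhibitory neuron markers as the denominator, the Scg2 groups were only narrowly apart. Scg2 was at 66.0%, 24.3% and 20.9% in DTx and 19.8% and 12.8% in saline libraries. The Resp18 groups overlapped, at 53.7%, 18.1% and 14.3% in DTx and 14.6% and 8.87% in saline libraries. Library 5A stood far above the others for both genes.

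**Figure D3:**
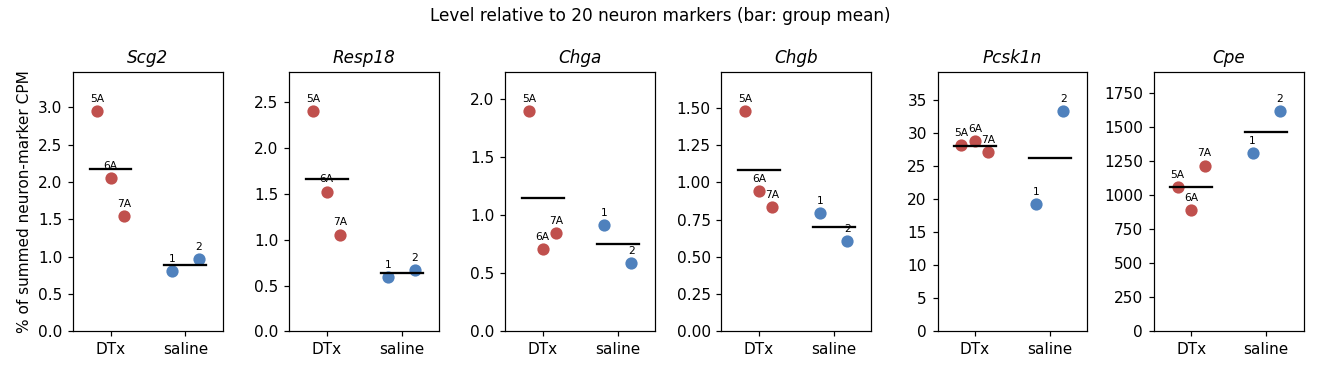
Level of 6 of the genes as a percentage of the summed CPM of 20 neuron markers in the same library, on linear axes from 0, with DTx libraries left of saline libraries and a bar at each group mean. The DTx points of Scg2 and Resp18 lie above both saline points, those of Chga and Pcsk1n overlap them, and those of Cpe lie below.

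Markers of other cell types are given for the same libraries. The 12 microglia markers summed to 440, 318 and 259 CPM in the DTx libraries 5A, 6A and 7A, against 106 and 262 CPM in saline replicates 1 and 2, so library 7A was below saline replicate 2. All 12 had a fold change above 0, and none was at 0. The 8 monocyte and border macrophage markers summed to 124, 16.8 and 49.4 CPM in the same DTx libraries, against 17.1 and 23.98 CPM in saline libraries, with Ly6c2, Ccr2 and Plac8 at 0 in some library. The 8 ependymal and choroid plexus markers summed to 201, 132 and 44.6 CPM in DTx, against 226 and 36.5 CPM in saline libraries, and Folr1 was at 0 in saline replicate 2. The 10 endothelial and mural markers summed to 308, 252 and 318 CPM in DTx, against 175 and 428 CPM in saline libraries, and the 7 oligodendrocyte precursor markers to 432, 605 and 823 CPM in DTx, against 623 and 820 CPM in saline libraries. The 10 inhibitory neuron markers summed to 55.9, 130 and 79.6 CPM in DTx, against 39.7 and 62.2 CPM in saline libraries, with 4 of them (Dlx5, Dlx6, Dlx6os1 and Lhx6) at 0 in some library. The summed level of excitatory neuron markers was lower on average. The 5 that passed the low-count filter summed to 263, 299.6 and 260.1 CPM in DTx, against 354 and 288 CPM in saline libraries (two-sided exact permutation p = 0.4), with 2 above 0 in log2 fold change, 3 below and a median of -0.27. Rorb supplied most of this sum in every library, at 224, 267 and 233 CPM in DTx, against 312 and 269 CPM in saline libraries. The 2 markers above 0 were Slc17a6 and Tbr1, with log2 fold changes of 0.76 ± 0.580 and 1.64 ± 1.26 (SE) and overlapping groups. The sum therefore mainly follows Rorb and does not speak for each marker. It is not read as a level of excitatory neuron RNA. Of all these sums, including the astrocyte and oligodendrocyte ones, only that of the 20 neuron markers kept the groups apart. The part of these cell types in the values of the 10 genes was not tested.

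The wider pathway was followed through 5 further lists with 82 genes, of which 75 were tested. Of these 0 passed edgeR's test in either direction, where 0.0322% of all genes passed. At an unadjusted p under 0.05, 16 were higher and 2 lower in DTx, where 4.29% of all genes were higher and 2% lower. DESeq2 called 6, all higher, and these were Pmch, Sytl4, Gal, Syt4, Baiap3 and Cartpt. Over all genes it called 0.624% as higher and 0.105% as lower in DTx. The same shares over all genes are the background for each list below. The groups did not overlap for 25 genes with DTx higher, where 12.1% of all genes tested did so, and for 4 genes with DTx lower, where 8.99% did so.

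Other cargo and membrane proteins of the vesicle were higher on average for 6 of 6 genes, with a median log2 fold change of 0.51. EdgeR's test called 0 (1 at an unadjusted p under 0.05), and DESeq2 called 1, Cartpt, with an adjusted p of 0.0220. Vgf, a granin-like precursor, was at 1.90, 2.11 and 1.71 CPM in the DTx libraries 5A, 6A and 7A, against 0.877 and 1.17 CPM in saline replicates 1 and 2 (edgeR adjusted p = 0.789). Its groups did not overlap. Cartpt, the precursor of the CART peptides, was at 3.54, 2.11 and 0.797 CPM in the same DTx libraries, against 0.231 and 0.0897 CPM in saline replicates 1 and 2 (edgeR adjusted p = 0.759). Ica1, a cytosolic protein of vesicle budding, averaged 4.93 ± 0.108 CPM in DTx (SD, n = 3) and 3.39 ± 0.425 CPM in saline libraries (SD, n = 2). Nucb2, the precursor of nesfatin-1, averaged 4.99 ± 0.856 CPM in DTx and 3.59 ± 0.440 CPM in saline libraries. The transmembrane vesicle proteins Ptprn and Ptprn2 overlapped between groups, with log2 fold changes of 0.19 ± 0.316 and 0.26 ± 0.299 (SE).

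Vesicle release genes were above 0 in log2 fold change for 16 of 20, with a median of 0.44. EdgeR's test called 0 (6 at an unadjusted p under 0.05, all higher in DTx) and DESeq2 called 3. Sytl4, or granuphilin, docks secretory granules at the plasma membrane through Rab27. It stood at 41.3, 60.9 and 16.7 CPM in the DTx libraries 5A, 6A and 7A, against 2.59 and 3.94 CPM in saline replicates 1 and 2, a log2 fold change of 3.60 ± 0.638 (SE, edgeR adjusted p = 0.759). It was called without library 7A, at 3.96 ± 0.310 with an adjusted p of 0.0225. Syt4, a synaptotagmin of peptide-containing vesicles, was at 32.1, 31.5 and 19.0 CPM in the DTx libraries 5A, 6A and 7A, against 11.7 and 8.38 CPM in saline replicates 1 and 2. Baiap3, a Munc13-family protein of dense-core vesicle traffic, was at 13.5, 24.3 and 14.3 CPM in the same DTx libraries, against 7.29 and 3.86 CPM in saline libraries. Rab3c, a vesicle GTPase, averaged 67.7 ± 8.41 CPM in DTx (SD, n = 3) and 40.0 ± 6.46 CPM in saline libraries (SD, n = 2). Among these 3 genes the groups did not overlap, with edgeR adjusted p between 0.759 and 0.761. The priming factors Cadps and Cadps2 did overlap, with log2 fold changes of 0.04 ± 0.275 and 0.13 ± 0.520 (SE).

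Vesicle biogenesis genes lay close to the background. Of 15 tested, 5 were above 0 and 10 below, with a median log2 fold change of -0.03, and 0 passed by edgeR or DESeq2 (0 at an unadjusted edgeR p under 0.05). Hid1, a Golgi factor of vesicle formation, averaged 53.1 ± 22.3 CPM in DTx (SD, n = 3) and 66.3 ± 3.41 CPM in saline libraries (SD, n = 2). Rab2a, a GTPase of vesicle maturation, averaged 167 ± 22.7 CPM in DTx and 217 ± 97.1 CPM in saline libraries. Tbc1d5 and Arfip1 had log2 fold changes of -0.43 ± 0.261 and 0.16 ± 0.170 (SE).

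Enzymes outside the set were above 0 for 4 of 13 and below 0 for 9, with a median log2 fold change of -0.09 and 0 called by edgeR or DESeq2 (2 lower in DTx at an unadjusted edgeR p under 0.05). Pam, which amidates peptides at their C terminus, was at 38.9, 33.2 and 31.6 CPM in the DTx libraries 5A, 6A and 7A, against 45.1 and 27.7 CPM in saline replicates 1 and 2. The DTx values lay within the saline range. Pcsk6, a convertase of the constitutive pathway, averaged 22.4 ± 4.10 CPM in DTx (SD, n = 3) and 32.8 ± 6.12 CPM in saline libraries (SD, n = 2), with an edgeR adjusted p of 0.789. Cpd, a carboxypeptidase of the trans-Golgi network, was at 81.4, 53.4 and 95.3 CPM in the DTx libraries 5A, 6A and 7A, against 147 and 107.5 CPM in saline replicates 1 and 2 (edgeR adjusted p = 0.789). Both were lower in each DTx library than in either saline library. Pcsk5 averaged 1.44 ± 0.743 CPM in DTx and 0.615 ± 0.0450 CPM in saline libraries, and Cpm 55.4 ± 30.1 CPM in DTx and 82.7 ± 11.5 CPM in saline libraries.

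Prohormone precursors, the substrates of this machinery, had the highest median of the 5 lists, 1.55 on the log2 scale, unchanged with Oxt, which had no saline count, set at its bound. Of 21 tested 20 were above 0, and 0 passed edgeR's test (9 at an unadjusted p under 0.05, all higher in DTx), while DESeq2 called 2, Pmch and Gal. Pmch, the melanin-concentrating hormone precursor, was at 5.55, 4.73 and 6.38 CPM in the DTx libraries 5A, 6A and 7A, against 1.29 and 1.39 CPM in saline replicates 1 and 2. Gal, the galanin precursor, was at 4.49, 8.33 and 1.14 CPM in the same DTx libraries, against 0.139 and 0.403 CPM in saline libraries. Crh, the corticotropin-releasing hormone gene, had 34 counts in DTx and 3 in saline libraries, a ratio of scaled counts of 9.48 (95% exact interval 2.98 to 48.2, counting error only). Oxt, the oxytocin precursor, had 33, 20 and 2 counts in the DTx libraries 5A, 6A and 7A and 0 in saline libraries. Pooled, its 55 DTx counts were at least 15.3-fold higher against a floor of 3 counts over the saline libraries. That bound rests on libraries 5A and 6A, since 7A was near 0.

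**Figure D4:**
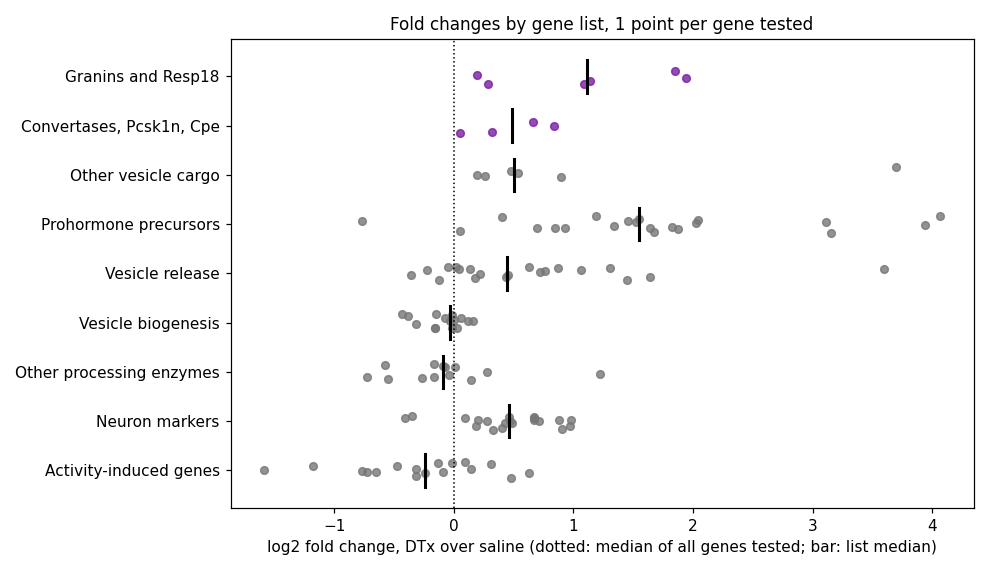
Log2 fold change of DTx over saline for each gene tested, by list, with a bar at the list median and a dotted line at the median of all genes (0.00171). The Oxt point is drawn at its bound. Granins with Resp18, prohormone precursors and vesicle release genes have medians of 1.114, 1.55 and 0.44, while vesicle biogenesis and other processing enzymes lie near 0. The first median includes Scg2 and Resp18, which were chosen for being higher in DTx, so it is not comparable with those of the other lists.

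A list of 20 activity-induced genes, which neurons switch on within minutes to hours of firing, was read beside the 10 genes. Its summed level was 536, 350 and 523 CPM in DTx, against 794 and 430 CPM in saline libraries, and the groups overlapped. Of 17 tested, 12 were below 0 in log2 fold change, with a median of -0.24, and 0 passed edgeR's test (1 at an unadjusted p under 0.05, lower in DTx), while DESeq2 called 1 lower, Arc, with an adjusted p of 0.000169. Arc, which encodes a synaptic protein, was at 18.0, 25.3 and 34.3 CPM in the DTx libraries 5A, 6A and 7A, against 85.6 and 69.8 CPM in saline replicates 1 and 2 (edgeR adjusted p = 0.759). Its groups did not overlap, and 7A, the DTx library lowest in Scg2, was highest in Arc. Bdnf, the precursor of a neurotrophin and also on the list of prohormone precursors, was at 3.86, 2.18 and 4.10 CPM in the same DTx libraries, against 7.29 and 4.26 CPM in saline libraries (edgeR adjusted p = 0.797). Its groups did not overlap either, and these were the 2 genes of the list that were lower in every DTx library. Fosb and Nr4a2, transcription factors of the same response, overlapped between groups. Nr4a2 averaged 3.28 ± 1.16 CPM in DTx (SD, n = 3) and 2.13 ± 0.977 CPM in saline libraries (SD, n = 2), and Fosb 3.79 ± 1.61 CPM in DTx and 8.58 ± 7.26 CPM in saline libraries.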

How the data were processed

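The authors deposited raw read counts per gene, 1 column per library, with no pooling. Tools named in the submitters' processing notes are edgeR 3.42.4, featureCounts 2.0.1, STAR 2.7.5c, MultiQC 1.11, FastQC 0.11.9 and fastp 0.23.2, with GRCm38 and mm10. Whether counting used the strand, and with which annotation, is not given in the sources used here. Per the labels' protocols, each library was made from 5 ng of total RNA. Control columns were matched to saline replicates by number. The numbers of the DTx columns are in no label, so these were assigned to the group alone. The table holds 1 more per-sample column, marked as a control in its header, which matches no sample analysed here and was left out of every step. The design text gives 3 saline animals, so every saline mean and every statement on overlap rests on 2 libraries.

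The 10 genes, the gene lists and the comparisons were chosen with earlier results of these data known. Counts were filtered with filterByExpr (minimum count 10), scaled by TMM and tested with edgeR 4.0.16 in R 4.3.3 (robust quasi-likelihood F test, Benjamini-Hochberg adjustment over all genes, threshold 0.05). On counts simulated from these libraries the test recovered most genes with large changes and made more false calls than its threshold allows. SE is the fold change divided by the square root of F. Fold changes are DTx over saline. DESeq2 1.42.0 and limma 3.58.1 (voom) were alternatives. Lengths and exons come from GENCODE M21, and coordinates and promoters from RefSeq GRCm38.p6. The named genes were the 10 members, up to 4 genes per pathway list with the smallest p, 6 vesicle genes named whatever their values, and the 5 profiles nearest to Scg2 and Resp18. Of the marker lists, genes are named as examples. Depths of 15961220 to 23720299 counts put the least abundant of the 10 genes at 9 to 46 counts per library. Every pair of libraries differed by more than sampling noise, by a chi-square test of counts. The labels do not tie each library to its own animal, so the p-values reflect only how these libraries vary, which may be technical. Intervals and floors cover counting error only. The result of 1 marker gene is not reported here, and the excitatory neuron sum over the markers that passed the filter was added after seeing the data.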

Additional observations from a re-analysis of the deposited data

How the results depend on the processing

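Scg2, Resp18 and the other 8 genes kept a log2 fold change above 0 under all 11 alternatives, and their 110 values moved by less than the spread between libraries. The median over the 10 genes was 0.416 without library 5A and 1.02 without 7A, the lowest and highest when 1 library was left out. Unlike the single values, the median moved by more than its spread between libraries when 5A was left out, from 0.747 with all libraries. Genes called over the whole table numbered 111 with DESeq2, 9 without the low-count filter and 5 to 13 when 1 library was left out. Of the other pathway lists DESeq2 called 6 genes, and 0 to 1 were called when 1 library was left out. The log2 ratio of summed levels changed direction when 1 library was left out, ranging between -0.548 and 0.737 for endothelial and mural markers (-0.0443 with all libraries, 0.0523 without 6A, 0.737 without saline replicate 2), between -0.841 and 1.79 for ependymal and choroid markers (-0.0572 with all, 0.347 without 7A, 1.79 without saline replicate 1) and between -0.757 and 0.126 for activity-induced genes (-0.382 with all, 0.126 without saline replicate 1). The cause of these changes was not tested. Where a saline library was left out, the lone one was assumed to vary like the DTx libraries. No paired analysis was possible because the DTx columns carry no replicate number of the labels. Of the 10 genes, Pcsk1 had the fewest counts.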
